A study of Mus musculus with 6 samples.

Results

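Glutathione and antioxidant enzyme genes were compared between immortalized neural precursor-like cells that were Lgi1 knock-out and those that were Lgi1 wild type. The genes were taken by symbol: the cytosolic and microsomal glutathione transferases, the glutathione peroxidases, the peroxiredoxins, the superoxide dismutases, and 13 single genes for glutathione supply, the thioredoxin system, catalase and the regulators NRF2 and KEAP1 with their targets. Of 55 symbols in the mouse reference that the rule matches, 50 had a row on the array annotated with that symbol alone, out of 19938 genes measured in all. Gsta1, Gsta2 and Gstp2 shared rows with other symbols, and no row with a single symbol was found for Prdx5 and Prdx6, so these 5 are not analysed here.

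The knock-out cells are homozygous for a deletion of Lgi1, a gene for a secreted neuronal protein, and the wild-type cells carry no such deletion. Both were derived from embryonic brain of strain C57BL/6J at day 13.5, were immortalized, and were grown in RPMI with low serum. There were 3 single-colour Affymetrix arrays per genotype, which the labels call biological replicates. How many embryos or clones stand behind a genotype and what immortalized the cells are not stated, so p-values reflect the spread among these arrays alone, and that spread could be technical.

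Glutathione is a small thiol peptide that keeps the cell interior reduced. It is made from cysteine, glutamate and glycine, is used by transferases to tag reactive compounds and by peroxidases to reduce peroxides, and is regenerated by glutathione reductase. Many genes of this system are driven by the transcription factor NRF2, which KEAP1 holds in check until electrophiles or oxidants reach the cell. In the brain the supply of glutathione is known best from astrocytes.

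The arrays were alike in overall signal, with medians of 6.38 to 6.41 on the log2 scale in the knock-out and 6.36 to 6.38 in the wild type. The mark of background was 5.67, the 95th percentile of the means of 1178 olfactory and vomeronasal receptor genes, whose products work in the nose. Lgi1 lay below that mark in both genotypes (4.55 ± 0.0211 in the knock-out and 4.77 ± 0.168 in the wild type, SD, n = 3 each), so it did not check the labels (limma adjusted p = 0.0747; 0.0463 when paired by replicate number). Xist, the RNA of the inactive X chromosome, averaged 12.44 in the knock-out and 4.64 in the wild type, and the Y-linked Eif2s3y averaged 4.67 in the knock-out and 10.19 in the wild type. Uty and Kdm5d, also Y-linked, averaged 4.82 and 5.24 in the knock-out and 10.03 and 9.03 in the wild type. The knock-out arrays thus had the pattern of female cells and the wild-type arrays that of male cells. This difference in sex-chromosome genes cannot be told apart from genotype in this design.

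Of the 50 members, 28 changed (56%; limma, Benjamini-Hochberg adjusted p under 0.05 over all genes), 8 upward and 20 downward. Over all 19938 genes 31.6% were called, 14% as higher and 17.6% as lower, so 16% of members higher lay near the background and 40% lower lay above it. At least 2-fold changes were found in 5 members higher and 5 lower, against 3.05% and 2.27% of all genes (5.32% in either direction). The members' median log2 fold change (knock-out minus wild type) was -0.12, and that of all genes -0.0118. The arrays of the genotypes did not overlap for 33 members, and did not overlap for 42.3% of all genes. In a fit that paired the arrays by replicate number, 30 members were called, 9 higher and 21 lower, against 35.1% of all genes (15.4% higher, 19.7% lower). In 10 members both genotypes averaged at or below the background mark, and 2 of the calls, Gstm6 and Gsto2, were among these. Dim genes are called less often on this platform: among genes with a mean at or above the median of all genes, 27 of 39 members were called (69.2%), against 53.5% of all such genes. Among the 40 members above the background mark in either genotype, 20% were called higher and 45% lower. Over all genes above that mark the shares were 22% and 27.7%. In bulk RNA of this kind, fewer cells of a type and less RNA per cell cannot be told apart.

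**Figure D1:**
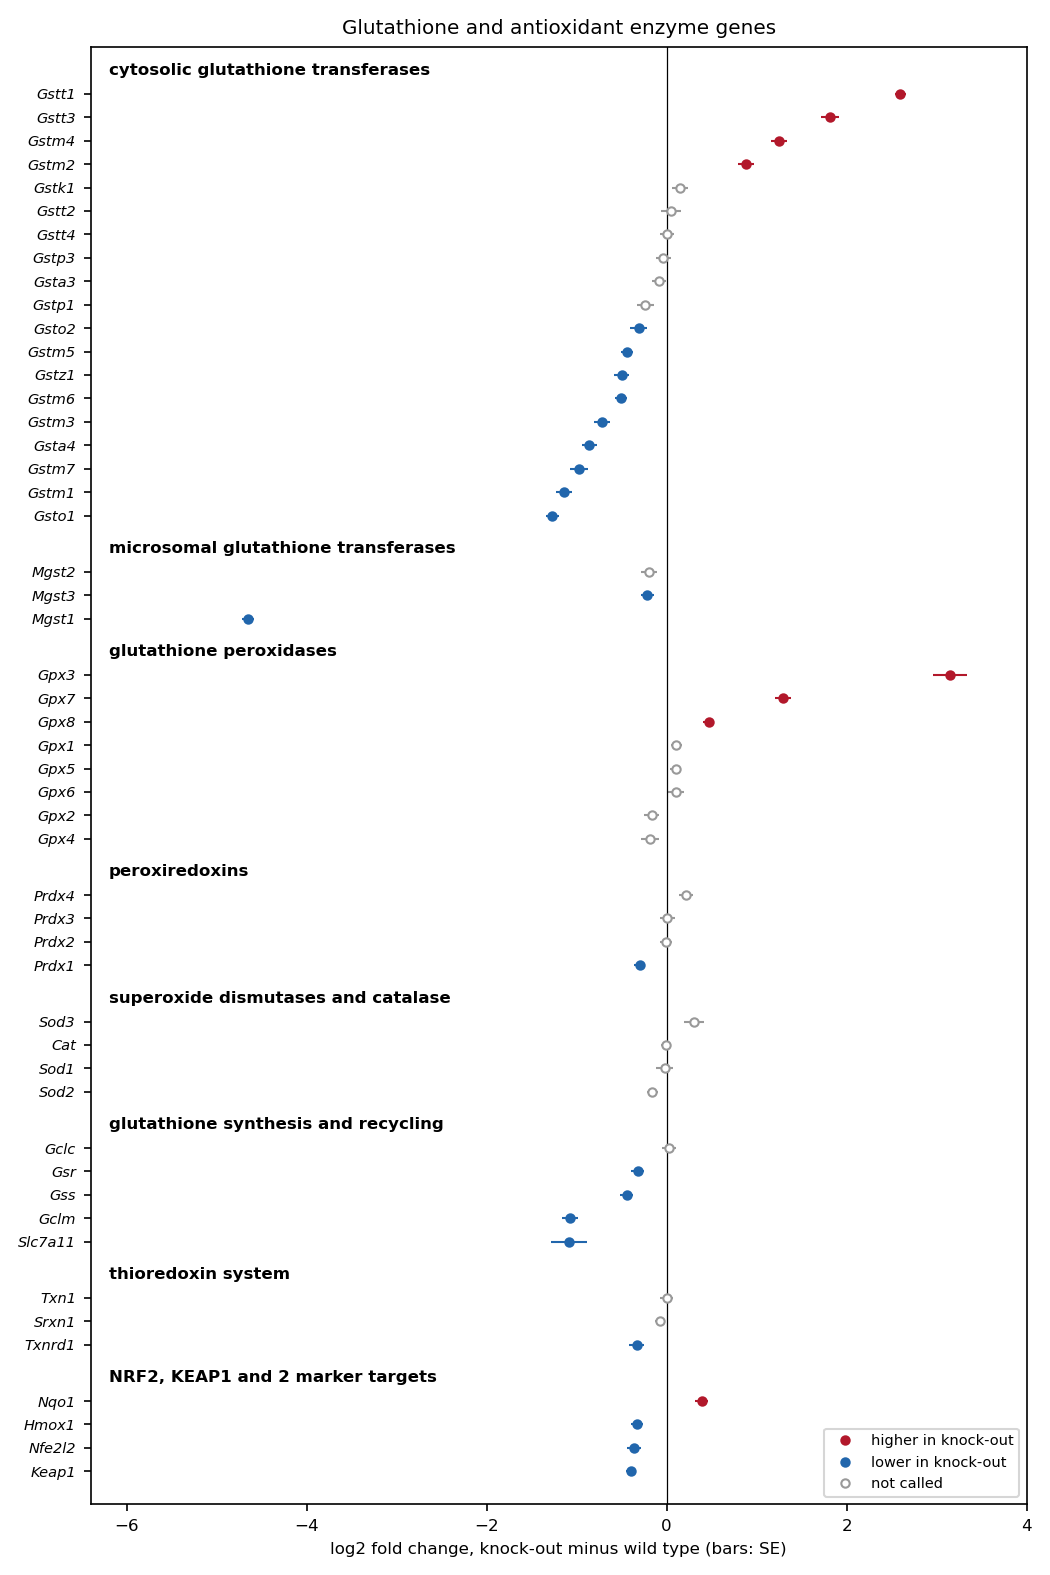
Log2 fold change, knock-out minus wild type, of all 50 members by class, with bars for the moderated SE. Filled points passed the test (8 higher, 20 lower) and open points did not, and Mgst1 at -4.65 and Gpx3 at 3.15 lie farthest from 0.

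The largest change of all members was in the microsomal glutathione transferases, a family of membrane enzymes separate from the cytosolic transferases. Mgst1, which conjugates electrophiles and reduces lipid peroxides at the endoplasmic reticulum and outer mitochondrial membrane, had log2 values of 5.16, 5.07 and 5.24 on the knock-out arrays and of 9.74, 9.83 and 9.85 on the wild-type arrays. The knock-out values all lay under the background mark and the wild-type values far above it. Mgst1 thus fell by 4.65 on the log2 scale (SE 0.07, limma adjusted p = 1.9e-11), 25.2-fold lower, and background limits the size of that fold. Mgst3, a relative with transferase and peroxidase activity, averaged 6.41 ± 0.0488 in the knock-out and 6.62 ± 0.122 in the wild type (SD, n = 3 each; log2 fold change -0.22, limma adjusted p = 0.0497), a call that was lost in 10 of 17 alternative settings, where its adjusted p ranged from 0.0146 to 0.159. Mgst2 averaged 5.30 in the knock-out and 5.49 in the wild type, both under the background mark, and did not pass (limma adjusted p = 0.117; 0.0442 when paired by replicate number).

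The promoter sequences of 6 members, picked after their values were seen, are shown as examples with and without the core of the antioxidant response element, the motif that NRF2 binds with its MAF partners. They come from RefSeq (GRCm38.p6), run 5′ to 3′ on the strand of the gene, and cover 250 bases before to 50 bases after an annotated start. Capitals mark a match to TGACNNNGC or to TGACTCA, the site of AP-1 factors, in either orientation. Mgst1, Gclm, Prdx1 and Txnrd1 fell and hold a match, though of 2 windows of Mgst1 and 3 of Txnrd1 only the one printed holds it. Gstt1 and Gpx3 rose and hold none. Members outside this pattern are not printed: Gsto1, Gstm1 and Slc7a11 fell and hold none, and Sod1, Srxn1 and Gsta3 were not called but hold a match.
Mgst1 (chr6:138140277-138140576, plus strand): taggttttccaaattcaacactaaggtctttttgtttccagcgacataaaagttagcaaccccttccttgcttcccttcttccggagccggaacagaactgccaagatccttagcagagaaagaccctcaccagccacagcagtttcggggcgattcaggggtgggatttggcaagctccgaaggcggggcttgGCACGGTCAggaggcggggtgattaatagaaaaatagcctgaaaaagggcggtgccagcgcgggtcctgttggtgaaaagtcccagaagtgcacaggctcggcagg
Gclm (chr3:122245307-122245606, plus strand): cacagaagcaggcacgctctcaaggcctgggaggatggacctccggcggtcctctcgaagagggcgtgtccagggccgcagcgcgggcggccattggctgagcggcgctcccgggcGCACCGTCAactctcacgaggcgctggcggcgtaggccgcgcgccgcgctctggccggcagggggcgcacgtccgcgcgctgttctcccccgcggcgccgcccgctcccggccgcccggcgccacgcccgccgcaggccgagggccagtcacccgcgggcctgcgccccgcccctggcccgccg
Prdx1 (chr4:116685349-116685648, plus strand): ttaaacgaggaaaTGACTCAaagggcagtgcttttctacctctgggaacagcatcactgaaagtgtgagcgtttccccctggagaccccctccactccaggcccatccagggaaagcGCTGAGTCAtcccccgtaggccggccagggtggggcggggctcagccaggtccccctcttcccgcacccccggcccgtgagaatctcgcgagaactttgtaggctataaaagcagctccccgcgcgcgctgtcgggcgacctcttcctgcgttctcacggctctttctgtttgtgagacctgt
Txnrd1 (chr10:82858956-82859255, plus strand): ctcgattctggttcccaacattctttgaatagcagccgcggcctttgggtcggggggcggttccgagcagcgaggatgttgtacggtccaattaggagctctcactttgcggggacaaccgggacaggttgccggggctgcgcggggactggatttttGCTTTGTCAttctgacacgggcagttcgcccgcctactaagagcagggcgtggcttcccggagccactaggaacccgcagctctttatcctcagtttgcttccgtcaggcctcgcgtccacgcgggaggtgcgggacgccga
Gstt1 (chr10:75797682-75797981, minus strand): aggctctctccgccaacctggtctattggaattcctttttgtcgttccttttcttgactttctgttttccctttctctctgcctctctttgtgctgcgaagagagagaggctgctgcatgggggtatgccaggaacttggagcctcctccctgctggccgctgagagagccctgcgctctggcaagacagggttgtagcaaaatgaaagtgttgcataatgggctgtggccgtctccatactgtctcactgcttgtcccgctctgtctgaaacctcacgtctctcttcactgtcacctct
Gpx3 (chr11:54902604-54902903, plus strand): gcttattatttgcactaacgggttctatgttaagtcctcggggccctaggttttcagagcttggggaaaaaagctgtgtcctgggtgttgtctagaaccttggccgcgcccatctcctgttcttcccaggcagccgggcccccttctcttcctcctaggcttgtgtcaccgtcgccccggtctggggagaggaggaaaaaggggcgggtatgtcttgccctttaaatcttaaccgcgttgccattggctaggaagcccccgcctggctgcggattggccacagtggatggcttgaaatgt

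Of the 50 members, 44 had such a window, and Gclc, Gsr, Hmox1, Gsta4, Sod3 and Gstt2 had none in the table. At least 1 window held TGACNNNGC, on either strand, in 7 of 17 members that fell (41.2%), in none of the 8 that rose and in 3 of 19 that were not called (15.8%). Among all 27025 genes with a window the share was 14.0%. Those that fell with a match were Gclm, Gstm5, Gstm7, Mgst1, Nfe2l2, Prdx1 and Txnrd1. The sites of Mgst1, TGACCGTGC, and of Gclm, TGACGGTGC, lie on the strand opposite to the gene. The base of the site farthest from the start lies 56 bases before it in Mgst1 and 134 bases before it in Gclm. In Prdx1 the match TGACTCAGC overlaps a TGACTCA, so the motifs are not independent there. Of the 44 members 10 had several windows, and per window the shares were 26.9% in members that fell, 0% in those that rose and 12.4% over all promoters. TGACTCA or TGAGTCA was found in 11.4% of members and in 5.95% of all genes. A match describes letters in this window only, no binding was measured, and the difference between members that fell and rose was not tested.

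Among the cytosolic glutathione transferases, soluble enzymes that join glutathione to electrophiles, 13 of 19 measured members changed, 4 upward and 9 downward, beside 31.6% of all genes. Gstk1, a mitochondrial enzyme, is counted with them. The rises were all in the theta and mu subfamilies. Gstt1, a theta-class transferase that acts on small halogenated compounds, had log2 values of 9.27, 9.11 and 9.13 in the knock-out and of 6.61, 6.54 and 6.57 in the wild type. It rose 6.05-fold (log2 fold change 2.60, SE 0.07, limma adjusted p = 7.9e-10) with no overlap between the arrays. Its neighbour Gstt3 had 7.44, 7.30 and 7.75 in the knock-out and 5.72, 5.68 and 5.64 in the wild type, where it lay at the background mark (log2 fold change 1.81, SE 0.10, limma adjusted p = 3.5e-07). The further theta genes Gstt2 and Gstt4 averaged 4.93 and 4.75 in the knock-out and 4.89 and 4.75 in the wild type, all below the background mark.

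The mu subfamily split within a single gene cluster on chromosome 3. With the brighter of 2 rows taken for Gstm3, all 7 of its measured members changed, 2 upward and 5 downward, beside 31.6% of all genes. Gstm4 had 8.77, 8.74 and 8.60 in the knock-out and 7.54, 7.56 and 7.26 in the wild type (log2 fold change 1.25, SE 0.09, limma adjusted p = 2.1e-06). Gstm2 had 10.21, 9.96 and 10.10 in the knock-out and 9.37, 9.12 and 9.14 in the wild type (log2 fold change 0.88, SE 0.09, limma adjusted p = 2.8e-05). Gstm1, which lies between these in the order of RefSeq and is a major mu-class enzyme of liver and brain, moved the other way. It had 10.11, 10.08 and 9.84 in the knock-out and 11.24, 11.02 and 11.20 in the wild type, 2.21-fold lower (log2 fold change -1.14, SE 0.09, limma adjusted p = 4.4e-06). In none of these genes did the arrays of the genotypes overlap, beside 42.3% of all genes without overlap.

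Gstm7, on the other side of the cluster, had 7.76, 7.47 and 7.76 in the knock-out and 8.80, 8.48 and 8.64 in the wild type (log2 fold change -0.98, SE 0.10, limma adjusted p = 3.8e-05). Gstm3 had 6.90, 6.90 and 6.81 in the knock-out and 7.75, 7.60 and 7.41 in the wild type (log2 fold change -0.71, SE 0.09, limma adjusted p = 0.00011). A second, dimmer row of Gstm3 did not show this: it averaged 5.47 in the knock-out and 5.49 in the wild type, below the background mark, and with the rows averaged the log2 fold change was -0.37. Which row measures Gstm3 itself could not be settled, so its change is uncertain. Gstm6 had 4.40, 4.30 and 4.29 in the knock-out and 4.91, 4.89 and 4.71 in the wild type, so its call (log2 fold change -0.51, SE 0.07, limma adjusted p = 0.00036) rests on signal below background. Gstm5, known from brain and testis, averaged 9.97 ± 0.0872 in the knock-out and 10.41 ± 0.084 in the wild type (SD, n = 3 each; log2 fold change -0.44, limma adjusted p = 0.00087). The mu genes are close in sequence, and cross-hybridization between their probes was not tested.

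**Figure D2:**
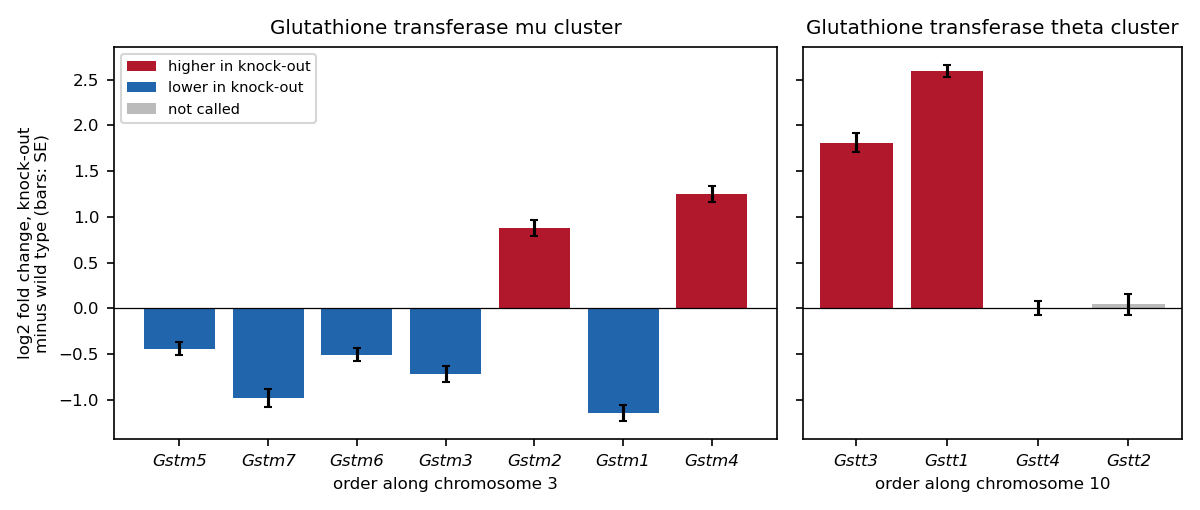
Log2 fold change, knock-out minus wild type, of the mu (left) and theta (right) glutathione transferase genes in their RefSeq order along chromosomes 3 and 10, with bars for the SE. Gstm2 and Gstm4 rose while Gstm1 between them fell, and Gstt3 and Gstt1 rose while Gstt4 and Gstt2, both below background, were not called.

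The other subfamilies held falls and members that did not pass. Gsto1, an omega-class enzyme that reduces dehydroascorbate and deglutathionylates proteins, had 8.31, 8.24 and 8.46 in the knock-out and 9.59, 9.68 and 9.56 in the wild type (log2 fold change -1.27, SE 0.07, limma adjusted p = 4.3e-07), 2.41-fold lower. Gsta4, the alpha-class enzyme that clears aldehydes from oxidized lipids, had 6.75, 6.64 and 6.66 in the knock-out and 7.73, 7.46 and 7.45 in the wild type (log2 fold change -0.86, SE 0.08, limma adjusted p = 2.3e-05). Gstz1, which acts in tyrosine breakdown, had 7.96, 8.09 and 7.98 in the knock-out and 8.54, 8.63 and 8.36 in the wild type (log2 fold change -0.50, SE 0.08, limma adjusted p = 0.00074). In these 3 genes every knock-out array lay below every wild-type array, where the arrays of 42.3% of all genes did not overlap in either direction. Gsto2, near Gsto1, averaged 4.78 in the knock-out and 5.09 in the wild type, with overlapping arrays below the background mark (limma adjusted p = 0.0313), and its call was lost in 6 of 16 alternative settings, where its adjusted p ranged from 0.00633 to 0.168. Gstp1, the pi-class transferase that is abundant in many cultured cells, averaged 11.45 ± 0.184 in the knock-out and 11.68 ± 0.0833 in the wild type (SD, n = 3 each) and did not pass (limma adjusted p = 0.0868). Without knock-out replicate 2 it passed (log2 fold change -0.34, limma adjusted p = 0.0126). It may share signal with Gstp2, a close copy. Gstk1, the mitochondrial kappa enzyme, averaged 8.26 in the knock-out and 8.11 in the wild type and did not pass either, while Gsta3 and Gstp3 lay below the background mark in both genotypes.

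**Figure D3:**
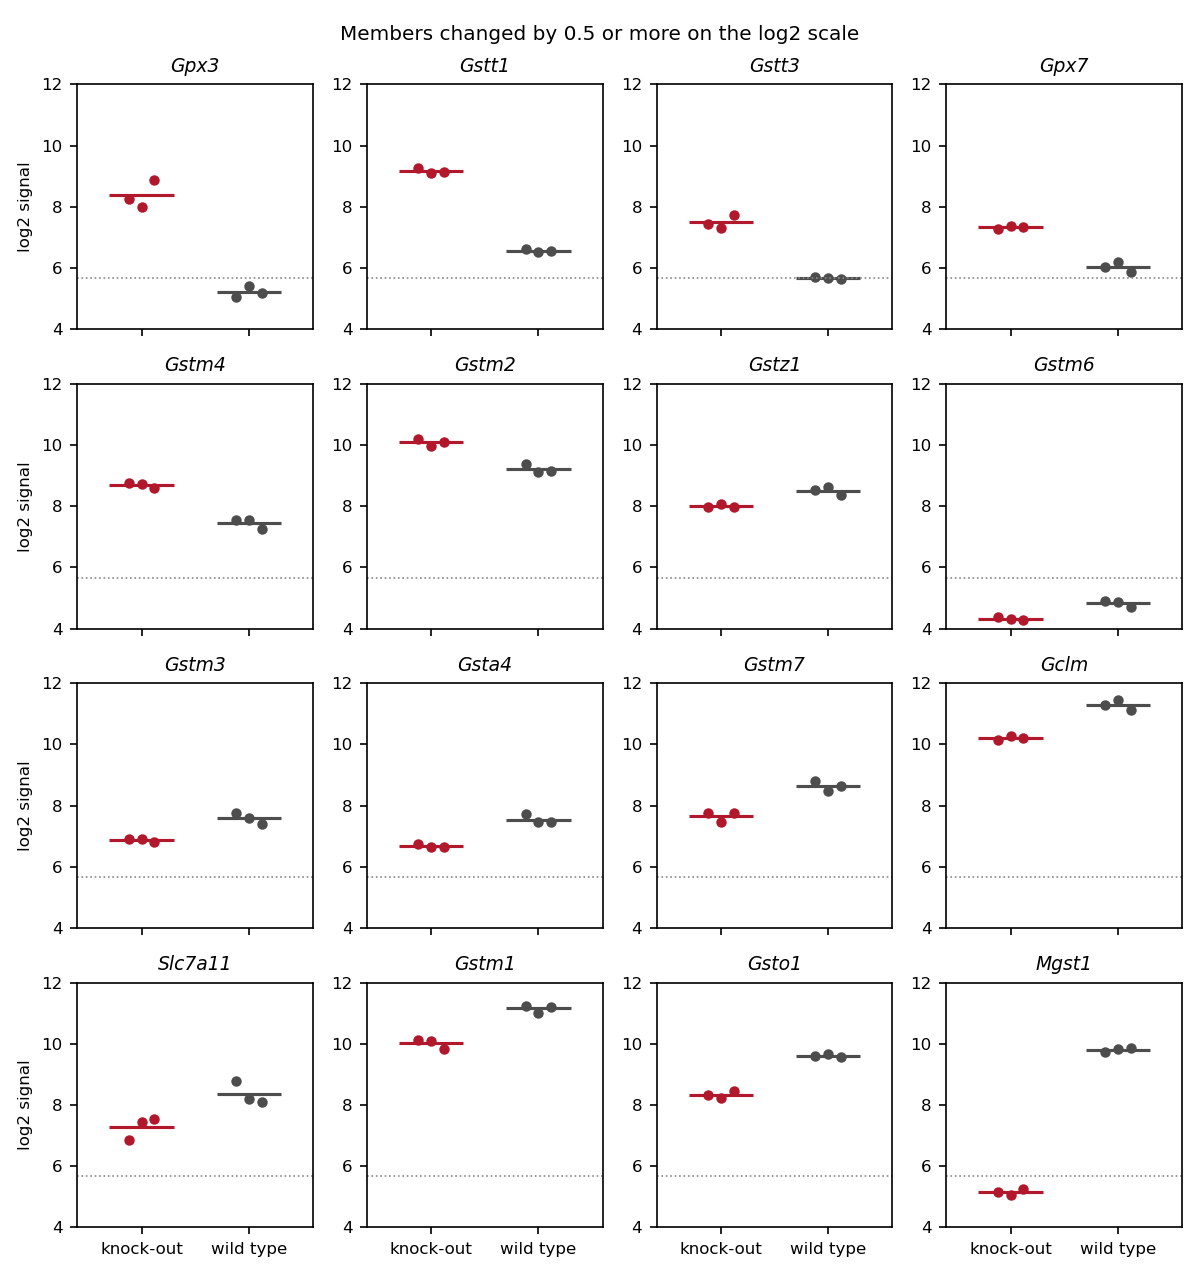
Log2 signal on each array of the 16 members that passed with a change of 0.5 or more, knock-out left and wild type right, with the mean as a line and the background mark of 5.67 dotted. The arrays of the genotypes do not overlap in any panel, beside 42.3% of all genes, and choosing members by call and size of change favours this. Mgst1 in the knock-out, Gpx3 in the wild type and Gstm6 in both lie below the mark.

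The glutathione peroxidases, which reduce peroxides with glutathione or thioredoxin as donor, gave 3 rises and no fall among 8, a share called of 37.5% beside 31.6% of all genes. Gpx3, the secreted selenoenzyme of plasma and extracellular fluid, had 8.26, 8.004 and 8.87 in the knock-out and 5.07, 5.43 and 5.20 in the wild type. The knock-out arrays varied more among themselves than those of most members, yet all lay above the wild type, which was below the background mark (log2 fold change 3.15, SE 0.19, limma adjusted p = 5e-07). Its 8.86-fold rise is limited by background in the wild type. Gpx7, a peroxidase of the endoplasmic reticulum that feeds disulfide formation, had 7.27, 7.38 and 7.34 in the knock-out and 6.02, 6.21 and 5.86 in the wild type (log2 fold change 1.296, SE 0.09, limma adjusted p = 1.5e-06). Gpx8, a membrane-bound peroxidase of the same compartment, averaged 12.12 ± 0.0618 in the knock-out and 11.65 ± 0.0405 in the wild type (SD, n = 3 each; log2 fold change 0.47, limma adjusted p = 0.00021). The widely expressed selenoenzymes did not pass: Gpx1, the cytosolic form, averaged 10.62 ± 0.0738 in the knock-out and 10.51 ± 0.0486 in the wild type (limma adjusted p = 0.266). Gpx4, which reduces lipid hydroperoxides and guards against ferroptosis, averaged 9.85 ± 0.0858 in the knock-out and 10.03 ± 0.194 in the wild type (SD, n = 3 each; limma adjusted p = 0.194), and a second row gave nearly the same log2 fold change (-0.17 beside -0.18). Gpx2, Gpx5 and Gpx6, known from gut, epididymis and olfactory tissue, lay below the background mark.

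Of 5 genes for the supply and recycling of glutathione 4 fell, none rose and Gclc did not pass, where 17.6% of all genes were called lower. Slc7a11, the cystine importer that supplies cysteine, had 6.84, 7.45 and 7.55 in the knock-out and 8.78, 8.21 and 8.11 in the wild type. The groups did not overlap, but replicate 1 stood apart in each, low in the knock-out and high in the wild type, and the SE was the largest of the members (log2 fold change -1.08, SE 0.20, limma adjusted p = 0.0021). Without moderation of the variances its adjusted p was 0.0841. Slc3a2, the heavy chain that carries this transporter to the membrane and a gene named here after its values were seen, averaged 12.45 ± 0.0578 in the knock-out and 12.70 ± 0.0703 in the wild type (SD, n = 3 each; log2 fold change -0.26, limma adjusted p = 0.012).

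Gclm, the modifier subunit of glutamate cysteine ligase, which catalyses the rate-limiting step, had 10.15, 10.28 and 10.20 in the knock-out and 11.30, 11.44 and 11.11 in the wild type (log2 fold change -1.07, SE 0.09, limma adjusted p = 5.6e-06). Gclc, the catalytic subunit of the same enzyme, had 9.71, 9.61 and 9.53 in the knock-out and 9.61, 9.71 and 9.45 in the wild type, with overlapping arrays (log2 fold change 0.03, SE 0.08, limma adjusted p = 0.871). The subunits of this ligase thus gave different results, although the difference between them was not tested. Gss, glutathione synthetase, averaged 7.86 ± 0.119 in the knock-out and 8.31 ± 0.0369 in the wild type (SD, n = 3 each; log2 fold change -0.45, limma adjusted p = 0.00086). Gsr, glutathione reductase, averaged 10.07 ± 0.081 in the knock-out and 10.39 ± 0.0872 in the wild type (SD, n = 3 each; log2 fold change -0.32, limma adjusted p = 0.0057).

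Small changes or none were found in the enzymes that remove superoxide and hydrogen peroxide without glutathione. Of 4 peroxiredoxins, thiol peroxidases recycled by thioredoxin, only the cytosolic Prdx1 changed (25%, beside 31.6% of all genes). It had 12.14, 12.18 and 12.19 in the knock-out and 12.47, 12.54 and 12.40 in the wild type (log2 fold change -0.30, SE 0.06, limma adjusted p = 0.0042), and its second row gave -0.32. Prdx2, also cytosolic, and Prdx3, of mitochondria, had log2 fold changes of -0.0060 and 0.0074 (limma adjusted p = 0.964 and 0.963). A second, dimmer row of Prdx2 gave -0.04, and which row measures the gene could not be settled. Prdx4, of the endoplasmic reticulum, averaged 9.27 ± 0.145 in the knock-out and 9.05 ± 0.0251 in the wild type (SD, n = 3 each) and did not pass (limma adjusted p = 0.0568; 0.0332 when paired by replicate number). It lies on the X chromosome, and Xist differed between the same arrays.

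None of the 3 superoxide dismutases and catalase passed, with limma adjusted p of 0.0657 or more, although Sod3 and Sod2 had an unadjusted p under 0.05 (0.0217 and 0.0367). Sod3, the extracellular enzyme, had 5.84, 6.34 and 6.16 in the knock-out and 5.90, 5.73 and 5.79 in the wild type, overlapping and close to background. Without knock-out replicate 1 it passed (log2 fold change 0.44, limma adjusted p = 0.00422). Sod2, the mitochondrial enzyme, averaged 10.64 ± 0.0778 in the knock-out and 10.80 ± 0.0493 in the wild type (SD, n = 3 each; limma adjusted p = 0.101). Sod1, the cytosolic copper and zinc enzyme, averaged 11.95 in the knock-out and 11.97 in the wild type, and Cat, the peroxisomal catalase, averaged 10.95 in both.

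In the thioredoxin system, which reduces peroxiredoxins and protein disulfides, 1 of 3 members changed, 33.3% beside 31.6% of all genes. Txnrd1, the cytosolic selenoenzyme that reduces thioredoxin, had 9.33, 9.37 and 9.54 in the knock-out and 9.64, 9.87 and 9.74 in the wild type (log2 fold change -0.33, SE 0.08, limma adjusted p = 0.0101). Without moderation its adjusted p was 0.0842. Thioredoxin itself, Txn1, averaged 13.89 in both genotypes. Srxn1, sulfiredoxin, which restores overoxidized peroxiredoxins, averaged 8.46 ± 0.016 in the knock-out and 8.53 ± 0.0327 in the wild type (SD, n = 3 each; limma adjusted p = 0.429).

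The regulators NRF2 and KEAP1 both fell slightly at the RNA level, which says nothing of the NRF2 protein, whose amount is set mainly by its degradation. Keap1 had 7.95, 7.98 and 8.01 in the knock-out and 8.35, 8.39 and 8.38 in the wild type (log2 fold change -0.40, SE 0.06, limma adjusted p = 0.00041). Nfe2l2, the gene of NRF2, averaged 11.01 ± 0.118 in the knock-out and 11.37 ± 0.0871 in the wild type (SD, n = 3 each; log2 fold change -0.36, limma adjusted p = 0.0049; 0.0553 without moderation). Both separated the arrays by genotype, as did 42.3% of all genes. The marker targets of NRF2 disagreed in direction. Hmox1, heme oxygenase, fell, averaging 8.68 ± 0.0697 in the knock-out and 9.002 ± 0.0746 in the wild type (log2 fold change -0.33, limma adjusted p = 0.0037). Nqo1, a quinone reductase, rose, averaging 7.44 ± 0.033 in the knock-out and 7.05 ± 0.136 in the wild type (SD, n = 3 each; log2 fold change 0.39, limma adjusted p = 0.0027).

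Related genes outside the module were read from 8 lists. Over all genes 14% were called higher and 17.6% lower, and over all genes above the background mark in either genotype 22% and 27.7%. Of 24 measured genes among 25 further ones that NRF2 is known to drive, 5 rose and 7 fell, with a median log2 fold change of -0.11. Cbr1, a carbonyl reductase, rose by 0.92 and Blvrb, a biliverdin reductase, by 0.64, while Akr1b8, an aldo-keto reductase, fell by 1.31 and Slc48a1, a heme transporter, fell by 0.80. Among 17 partners and regulators of NRF2, 3 rose and 2 fell. Bach1, the repressor that competes with NRF2 for its sites, averaged 8.74 ± 0.0689 in the knock-out and 8.25 ± 0.0666 in the wild type (SD, n = 3 each; log2 fold change 0.49, limma adjusted p = 0.00024), and Bach2 rose by 0.48. Nfe2l1, a relative of NRF2, fell by 0.40, and Sqstm1, the autophagy receptor that binds KEAP1, fell by 0.23.

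Of 23 genes of glutathione breakdown, cysteine supply and export, 7 rose and 8 fell (65.2% called, beside 31.6% of all genes). Cdo1, the dioxygenase that oxidizes cysteine to its sulfinic acid, had 11.10, 10.88 and 11.09 in the knock-out and 7.41, 7.78 and 7.62 in the wild type. It rose 10.7-fold (log2 fold change 3.42, SE 0.10, limma adjusted p = 2.2e-09). Ggt7, of the gamma-glutamyltransferase family, rose by 0.84. The exporter Abcc4 fell by 0.84, and Abcc1, a pump for glutathione conjugates, fell by 0.61. Abcc5, of the same family, rose by 0.80.

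Thioredoxin-like, glutaredoxin and methionine sulfoxide reductase genes gave 7 rises and 7 falls of 21. Txndc5, a disulfide isomerase of the endoplasmic reticulum, rose by 1.34 and Txnip, which binds and inhibits thioredoxin, by 0.85. Sesn3, a sestrin, fell by 1.17 and Tmx3, another isomerase of the endoplasmic reticulum, by 0.82. Of 13 genes of NADPH supply 3 rose and 4 fell, with rises of Idh1 (0.57) and Tkt (0.47) and falls of Me2 (-0.44) and Pgd (-0.40). Among 15 producers of superoxide and peroxide 3 rose and 1 fell: the monoamine oxidases Maob and Maoa rose by 0.94 and 0.90, and the aldehyde oxidase Aox1 fell by 1.58. Both monoamine oxidases are X-linked, and Xist differed between the same arrays. Of 14 genes of selenoprotein synthesis and further selenoproteins 2 rose and 4 fell, from Selenow (0.86) and Selenok (0.54) to Selenot (-0.44) and Lrp8 (-0.67), the receptor that takes up selenoprotein P. Metallothioneins and glyoxalases gave 1 fall, Glo1 (-0.31), among 7, and 2 calls when paired by replicate number. Together 64 of the 133 measured genes of these lists were called (48.1%), 30 higher and 34 lower, beside 31.6% of all genes. Of the 133, however, 113 lay above the background mark in either genotype. Among all genes above that mark in either genotype 49.7% were called, 22% higher and 27.7% lower. The 48.1% of the lists also counts 20 genes at or below the mark, so these shares are not like for like. In the module 65% of the 40 members above the mark were called.

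**Figure D4:**
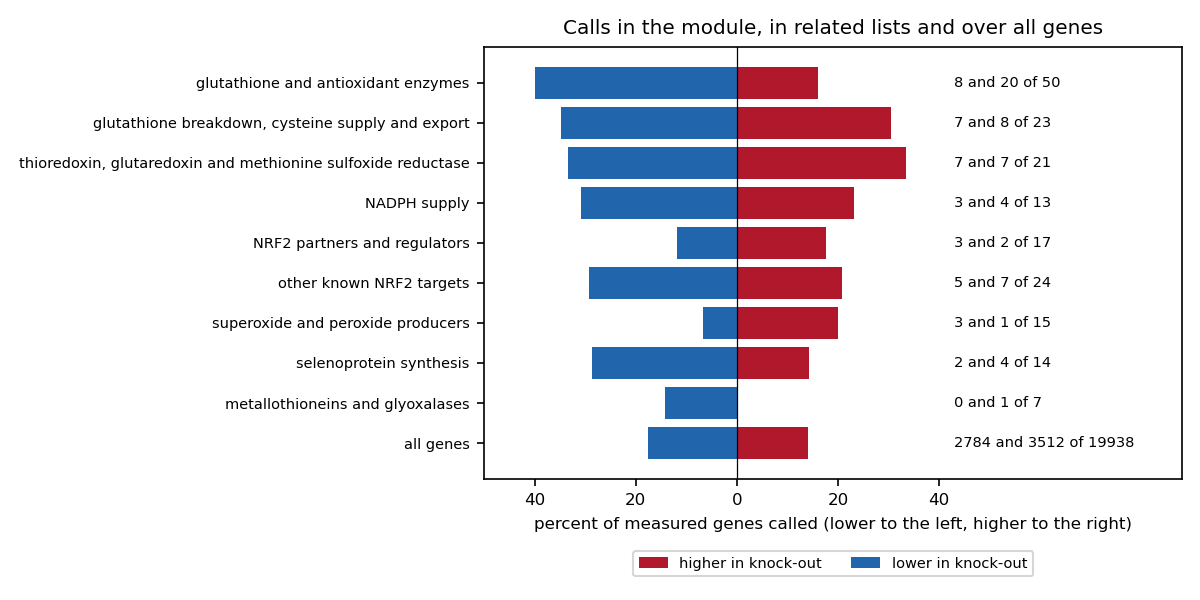
Percent of measured genes called lower (left) and higher (right) in the knock-out for the module, the 8 related lists and all genes, with the counts higher and lower printed beside each bar. The module had 20 falls and 8 rises of 50 genes, and the related lists pooled had 34 falls and 30 rises of 133; the difference was not tested.

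Markers of cell types were read on the same arrays. Of 15 fibroblast and meningeal markers 13 rose and none fell, beside 14% of all genes called higher and 17.6% called lower. Their summed linear signal was 27220 to 29357 in the knock-out and 5797 to 6925 in the wild type, with Mmp2 up by 6.13 and Postn by 5.77. Of 13 markers of neural progenitors and radial glia 2 rose and 5 fell, beside the same shares of all genes. Their summed signals were 15897 to 16870 in the knock-out and 17071 to 18924 in the wild type. Vim, the brightest of them, averaged 13.52 in the knock-out and 13.53 in the wild type and made up most of each sum. The sums therefore say little of the dimmer markers. Sox2 averaged 5.35 and Pax6 5.44 in the knock-out, below the background mark, against 11.26 and 7.12 in the wild type, and Ptprz1 rose by 6.43. Sox1 and Prom1, also used for neural precursors, had knock-out means of 5.59 and 4.70 and wild-type means of 5.72 and 4.68. Nes, another marker of neural precursors, averaged 8.72 in the knock-out and 10.73 in the wild type. Some markers of other types lay below the mark in both genotypes: Gfap and Aldh1l1 of astrocytes, Rbfox3 of neurons, Olig2 and Sox10 of oligodendrocytes, Pecam1 and Cdh5 of endothelium, Ptprc and Aif1 of leukocytes and Epcam of epithelia. Others lay above it in either genotype: 4 of 10 astrocyte, 3 of 10 neuron, 4 of 9 oligodendrocyte, 2 of 10 endothelial, 3 of 10 leukocyte and 3 of 9 epithelial markers. Gja1 of astrocytes averaged 10.25 in the knock-out and 10.55 in the wild type, and Map2 of neurons 10.95 and 10.05. Erg of endothelium averaged 9.97 in the knock-out and 5.37 in the wild type. Of the lists of these types 4 of 10 astrocyte, 3 of 10 neuron, 3 of 9 oligodendrocyte, 3 of 10 endothelial, 2 of 10 leukocyte and 2 of 9 epithelial markers were called, shares that lie around the 31.6% of all genes. Paired by replicate number, 5 neuron markers were called. The 2 largest changes of these lists were Aqp4 (-2.10) and Fgfr3 (-1.19), Syt1 (-0.92) and Map2 (0.90), Pdgfra (3.06) and Mbp (-0.87), Erg (4.60) and Tek (3.14), Tmem119 (2.12) and Trem2 (-0.23), and Cdh1 (-0.87) and Epcam (-0.22). The part that differences in cell identity, in sex-chromosome genes or in clone of origin have in the changes of the antioxidant genes was not tested.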

How the data were processed

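Total RNA of 6 samples was hybridized to single-colour arrays. For each probe set the deposited table gives a log2 value on every array (the scale was read from the range of the values), and the submitters' processing notes name Partek with no version. How the authors corrected background, normalized and summarized are steps not given in the sources used here, and scaling before deposit is unknown.

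Groups and replicate numbers come from the sample titles. Of 35556 rows, 21789 had 1 gene symbol, 1621 several and 12146 none in GEO's platform annotation, and of several rows of a gene the brightest on average was kept. The genotypes were tested with limma 3.58.1 under R 4.3.3 (functions lmFit and eBayes, log2 values as deposited, 4 residual degrees of freedom, no filter), with Benjamini-Hochberg adjustment over all 19938 genes and calls at an adjusted p under 0.05. Differences run knock-out minus wild type. On simulated data with these 19938 genes the test recovered 70% of 50 genes shifted by 0.5 (log2), 94% of those shifted by 1 and 100% of those shifted by 2, and called 10 unchanged genes. The simulation shifted a far smaller share of genes than the 31.6% called here, and drew its noise independently for each array. These rates may therefore not carry over to the real comparison. Only 3 arrays per genotype limit the precision.

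The members and lists were chosen with earlier results of these data known. Values on every array are given for members that passed with a change of 0.5 or more, and for the member of lowest adjusted p in other classes. In the related lists the 2 largest rises and 2 largest falls that passed are named, and Slc3a2 and Abcc5 were named after their values were seen. Promoter windows are those of RefSeq (GRCm38.p6). Same-number arrays of the genotypes deviated together (correlation across genes of deviations from genotype means 0.187 to 0.288 in 3 pairs, -0.185 to -0.0047 in 6 other pairs), so the replicate numbers of the titles were taken as pairs. Deviations within a genotype cancel out, so the negative values follow from the positive ones and are no separate evidence of pairing. The main fit has no block, and the blocked value is given where it changes a member's call or moves a count by over 1.5 times. Alternatives covered scaling, filters, rows per gene, the variance model, array weights, the block, the threshold and each array left out.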

Additional observations from a re-analysis of the deposited data

How the results depend on the processing

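Of the 28 called members, 23 kept their call and direction in every one of the 17 alternative settings that could test them. The others were Mgst3, Gsto2, Txnrd1, Slc7a11 and Nfe2l2, whose limma adjusted p reached 0.0553 for Nfe2l2 without moderation. With the replicate number as a block, 30 members were called, the same 28 with Prdx4 and Mgst2 (limma adjusted p = 0.0332 and 0.0442), and no other member's call changed. With the block the list of glutathione breakdown, cysteine supply and export had 14 calls in place of 15 and the NRF2 partners 7 in place of 5. Filters on the mean left 45 and 39 members. Counts of members called stayed at 8 to 9 higher and 18 to 20 lower with each array left out, those changed at least 2-fold at 9 to 11. The members' median of -0.12 was -0.154 with arrays centred on their medians, -0.165 and -0.185 above the 25th percentile and the median of mean level, and -0.141 to -0.0685 with each array left out (-0.0685 without wild-type replicate 3). Among microsomal transferases 2 calls became 1 without collapsing of rows, with an intensity trend, with array weights, without moderation and at a threshold of 0.01, and were 1 to 2 with each array left out. Peroxiredoxins had 2 calls in place of 1 above the median level, with array weights and with the block, and 1 to 2 with each array left out (2 without knock-out replicate 3, where Prdx4 passed). Cytosolic transferases had 12 to 14 calls with each array left out. Superoxide dismutases and catalase had 0 to 1 with each array left out (1 without knock-out replicate 1, where Sod3 passed). The thioredoxin system had 0 without moderation and at 0.01. Only members that were not called changed sign. Centring on medians gave log2 fold changes of -0.0269 for Gstt4, -0.0259 for Prdx3 and -0.0080 for Gclc. Quantile normalization gave 0.0050 for Cat and 0.0174 for Txn1, and array weights -0.0012 for Prdx3 and 0.0012 for Txn1. With each array left out the ranges were -0.0424 to 0.181 for Gstt2, -0.0795 to 0.0592 for Gstt4, -0.113 to 0.0143 for Gstp3, -0.000198 to 0.167 for Gpx6, -0.0536 to 0.0689 for Prdx3, -0.0391 to 0.0576 for Prdx2, -0.0222 to 0.0102 for Cat, -0.0985 to 0.0614 for Sod1, -0.0435 to 0.0837 for Gclc and -0.0368 to 0.0537 for Txn1. The cause of these differences was not tested. Signals near background limit what the dim members can show.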
